A study of Mus musculus with 48 samples.

Results

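Tbx21, Rora, Bcl6, Maf and Ahr, 5 of the 53345 genes in the deposited matrices, encode transcription factors that steer CD4 T cells into helper lineages. The genes were taken by their symbols, a rule that uses no measured value. Female C57BL/6 mice, 8 to 12 weeks old, were given 2 intraperitoneal doses of 500 µg of a blocking antibody to MHC II, the display platform for peptides that CD4 T cells recognize, or of an isotype antibody. On the day of the second dose they were injected subcutaneously with PBS or with 25 µg of 1 of 3 Fc-fused human IL-2 proteins: WT IL-2, the mutein H16R, or the mutein 3x, which combines 3 substitutions. H16R and 3x are described as attenuated, 3x the more so. Spleens were taken on day 4, and cells bound in a CD25 selection (Tregs, 8 groups of 4 libraries) and cells from the flow-through of that selection (Tcons, 8 groups of 2 libraries) were sequenced, so all of the mice were given an antibody and no group was untouched. A Treg library is therefore a fraction enriched by the IL-2 receptor alpha chain, a protein that IL-2 itself regulates. It is not a sort on Foxp3, but the methods describe a check of purified aliquots by Foxp3 staining. Most samples were reported there as largely Foxp3 positive, and the paper describes the Tcons as CD4 T cells without CD25.

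T-bet, the product of Tbx21, directs the Th1 program of IFN-γ and CXCR3. c-Maf, the product of Maf, drives IL-10 and takes part in follicular and Th17 programs, the aryl hydrocarbon receptor encoded by Ahr is a ligand-activated factor of Th17 and mucosal T cells, Bcl6 is the defining factor of follicular helper and follicular regulatory T cells, and RORα, the product of Rora, is a nuclear receptor of Th17 cells, innate lymphoid cells and tissue Tregs. Tregs are known to take up parts of these helper programs, which places them in the same tissues as the effector cells they restrain.

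The libraries held between 18.28 and 51.95 M expected counts (M, 1e6), and the lowest count of any of the 5 genes in any library was 399, so none was near the limit of detection. Treg markers (Foxp3, Il2ra, Ikzf2, Ctla4, Tnfrsf18 and Lrrc32, summed) ran from 2745 to 4932 counts scaled to 1e6 a library (CPM) in the 32 Treg libraries and from 365 to 1580 CPM in the 16 Tcon libraries. The highest Tcon value belonged to isotype WT IL-2 replicate 2. Among Tregs, isotype PBS replicate 1 held the highest sum of B cell markers (744 CPM) and MHC II block WT IL-2 replicate 1 came next (691 CPM), and the latter also held 565 CPM of macrophage markers, where the other Treg libraries held at most 96.8 CPM. The labels give 2 isotype WT IL-2 Treg libraries the same mouse number, here called replicates 3a and 3b, and their counts differed by more than sampling noise, so they are not 1 library deposited a second time. This does not show that they came from 2 mice, although the methods describe 4 mice a group, each processed separately. Replicates 3a and 3b were fitted as 2 of the 4 libraries of that group, so p-values involving it may be too small, and leaving out either was among the alternatives.

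In GRCm38 the annotation (GENCODE vM21) places Tbx21 (ENSMUSG00000001444) at chr11:97098071-97115331 on the minus strand, with no overlapping gene. Rora (ENSMUSG00000032238) lies at chr9:68653786-69388246 on the plus strand, Bcl6 (ENSMUSG00000022508) at chr16:23965052-23988852, Maf (ENSMUSG00000055435) at chr8:115682942-115707794 and Ahr (ENSMUSG00000019256) at chr12:35497974-35535038, the last 3 on the minus strand. Each of these 4 overlaps a gene on the other strand (Gm15511, Gm37419, Gm15655 and Gm48236), and although the library kit keeps strand, the counting is not stated to use it, so how far reads of the partners enter these counts is not known.

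Compared per length, as fragments per kilobase, scaled to library size (FPKM), Maf was the most abundant of the 5 in Tregs, with a median of 51.5 FPKM over 32 libraries (23.6 to 90.2). Rora followed at 14.1 FPKM (10.4 to 23.4), Tbx21 at 9.57 (6.17 to 23.8), Bcl6 at 9.05 (5.46 to 13.8) and Ahr at 6.05 (5.07 to 14.3). The ranges of the last 4 overlapped, and their order depended on the group. Mean Bcl6 (12.8 FPKM) was above mean Tbx21 (8.74 FPKM) in the isotype PBS group, and in the block 3x group mean Tbx21 (20.7 FPKM) was above Rora (12.7 FPKM). In Tcons the median over 16 libraries was 26.0 FPKM for Tbx21 (15.5 to 39.0), 22.9 for Maf, 10.4 for Rora, 7.06 for Bcl6 and 3.94 for Ahr. In the PBS Tcons mean Maf was above mean Tbx21, at 19.3 and 16.5 FPKM with isotype antibody and 31.8 and 16.1 FPKM with block.

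**Figure D1:**
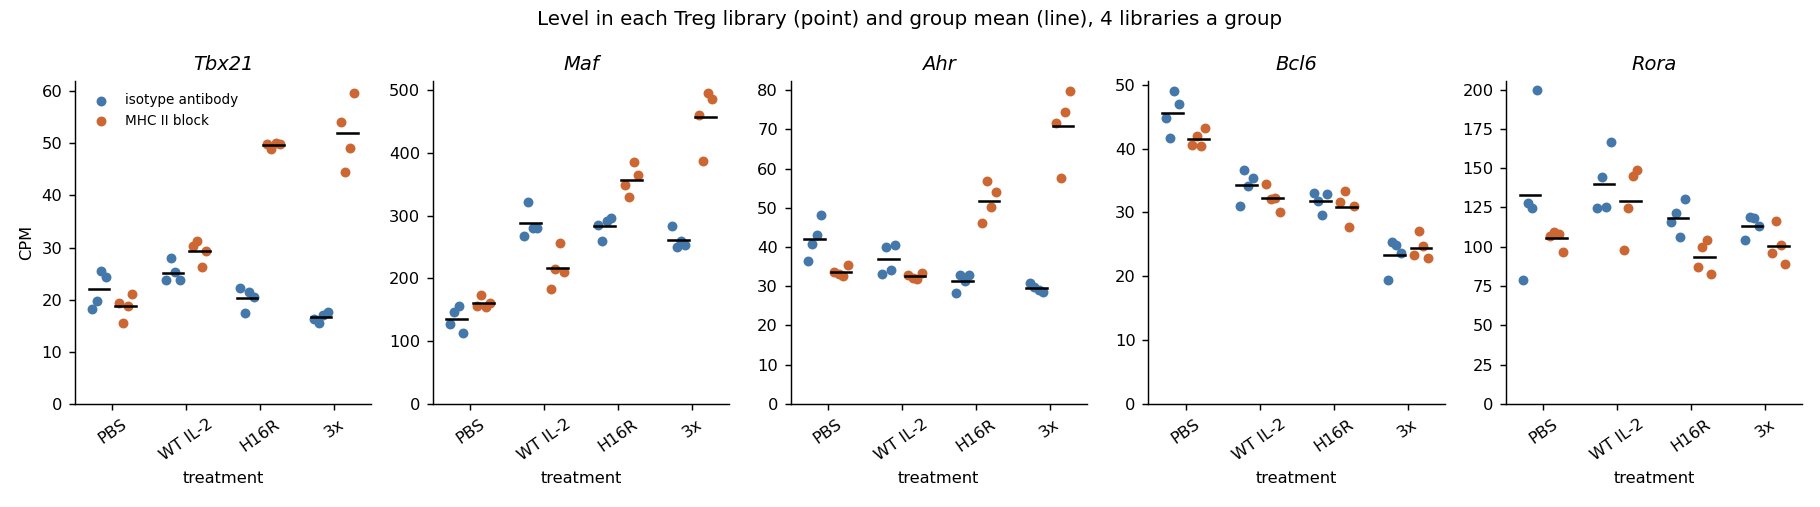
Level of each gene in CPM (vertical axis, from 0) in every Treg library (points), by treatment, with isotype antibody in blue and MHC II block in orange, and the mean of each group as a line. Tbx21 and Ahr stood highest in the MHC II block groups given H16R or 3x, Maf rose with every IL-2 protein, Bcl6 fell with every IL-2 protein, and the Rora groups overlapped.

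Each IL-2 protein was first compared with PBS in the same antibody arm (edgeR quasi-likelihood test over 12392 genes, Benjamini-Hochberg adjusted p below 0.1). This asks what the cytokine did under each antibody. With isotype antibody, 3 of the 5 genes passed after WT IL-2 (52.2% of all genes tested passed), 3 after H16R (64.2%) and 4 after 3x (63.6%). With MHC II block, 3 passed after WT IL-2 (35.6% of all genes), 4 after H16R (66.5%) and 4 after 3x (73%). These treatments changed so much of the transcriptome that the counts themselves were near the background, and what set the 5 genes apart from each other was direction and size. Replicates were separate mice, although the labels leave this open for 3a and 3b.

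**Figure D2:**
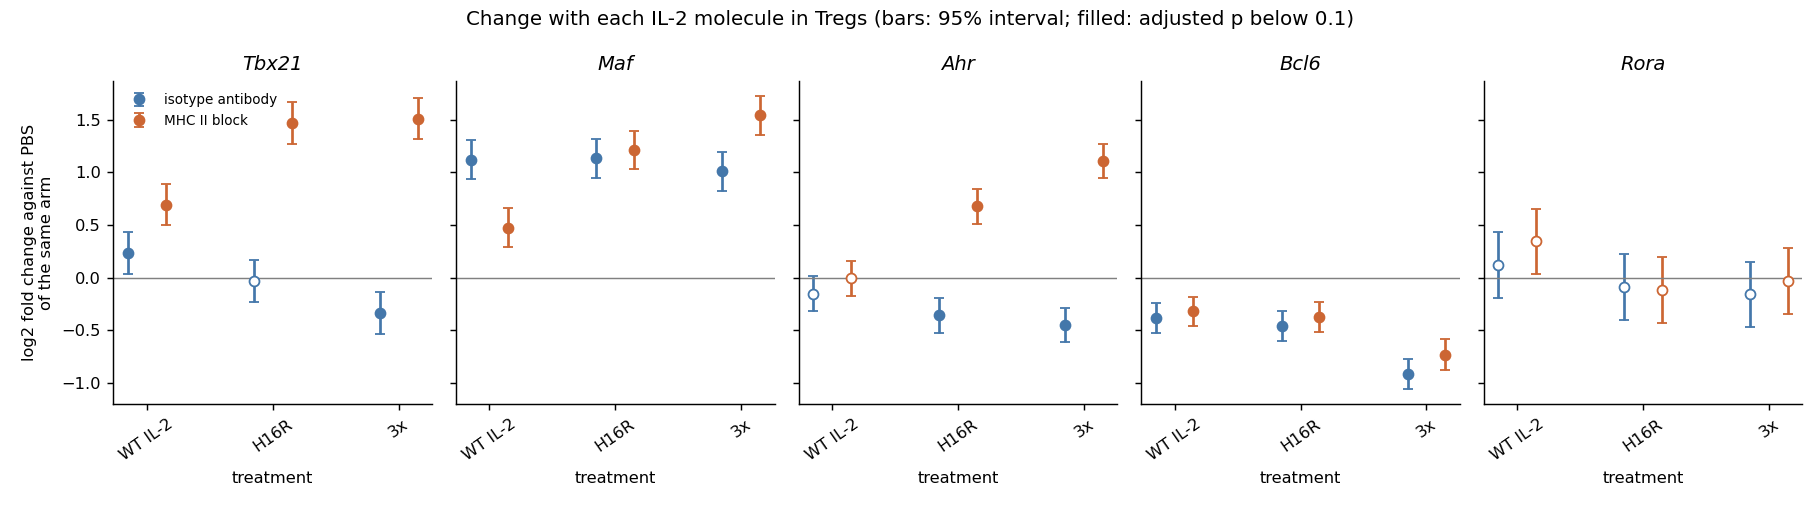
Log2 fold change of each gene against PBS of the same antibody arm (vertical axis) for the 3 IL-2 proteins in Tregs, with isotype antibody in blue and MHC II block in orange. Points are estimates from edgeR, bars are 95% intervals, and filled points passed an adjusted p of 0.1. The intervals of the 2 arms were far apart for Tbx21 and Ahr with H16R and 3x, and overlapped for Bcl6 and Rora.

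Tbx21 showed a rise with the muteins that was seen under MHC II block and not with isotype antibody. With isotype antibody its level was 18.2, 19.8, 25.4 and 24.3 CPM after PBS, 23.7, 28.0, 25.3 and 23.7 CPM after WT IL-2, 22.1, 17.4, 21.5 and 20.5 CPM after H16R, and 16.3, 15.5, 17.1 and 17.7 CPM after 3x. All 3x libraries lay below all PBS libraries, while the H16R libraries overlapped them. Under MHC II block it was 19.4, 15.6, 18.7 and 21.0 CPM after PBS, 30.4, 31.2, 26.3 and 29.4 CPM after WT IL-2, 49.94, 48.93, 50.04 and 49.88 CPM after H16R, and 54.2, 44.5, 49.2 and 59.8 CPM after 3x. The 8 block libraries given a mutein were the 8 highest of the 32 Treg libraries.

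Under block, Tbx21 rose by 1.47 (SE 0.10) on the log2 scale with H16R (adjusted p = 1.543e-12) and by 1.51 (SE 0.10) with 3x (adjusted p = 3.144e-13), more than the 0.69 (SE 0.10) seen with WT IL-2 (adjusted p = 1.04e-05). With isotype antibody, 3x lowered it (log2 fold change -0.34, SE 0.10, adjusted p = 0.00652), H16R left a difference of -0.03 (95% interval -0.23 to 0.17, adjusted p = 0.807), and WT IL-2 gave 0.24 (SE 0.10, adjusted p = 0.0590). That small rise with WT IL-2 was lost when any of isotype PBS replicate 1, isotype PBS replicate 2 or isotype WT IL-2 replicate 2 was left out (log2 fold changes 0.15, 0.19 and 0.20, adjusted p from 0.1398 to 0.2454), when the libraries were thinned to equal depth (0.16, adjusted p = 0.221), and when the 2 groups were fitted alone (0.24, adjusted p = 0.119).

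The difference between the arms was itself tested as an interaction of the IL-2 protein and the antibody. Tbx21 responded more under block than with isotype antibody for WT IL-2 by 0.46 (SE 0.14, adjusted p = 0.0290), for H16R by 1.5 (SE 0.14, adjusted p = 1.178e-07) and for 3x by 1.84 (SE 0.14, adjusted p = 1.366e-09). Over the 5 genes, 2 passed this test for WT IL-2 (19.7% of all genes), 2 for H16R (19.1%) and 3 for 3x (39%). In PBS mice, MHC II block alone left Tbx21 at a log2 difference of -0.25 (95% interval -0.45 to -0.04), with an adjusted p of 0.141, which became 0.0459 without isotype PBS replicate 1 and 0.0971 without block PBS replicate 4.

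Genes that follow T-bet in Th1 cells rose in most groups given an IL-2 protein, and not only where Tbx21 rose. Of 14 Th1 and T-bet associated genes, 12 rose and 1 fell after H16R under block, with a median log2 fold change of 1.302 against -0.02 over all genes, of which 32.7% rose. With 3x under block, 12 rose and 1 fell with a median of 0.70 (34.7% of all genes rose), and with WT IL-2 under block 12 rose and 1 fell with a median of 0.77 (21.9% of all genes rose). With isotype antibody 10 rose and 2 fell after WT IL-2 (median 0.42, 26% of all genes rose), 7 rose and 2 fell after H16R (median 0.26, 31.4%), and 4 rose and 3 fell after 3x (31.3%). Il12rb2, a subunit of the IL-12 receptor, was at 16.8 to 19.9 CPM in the block H16R libraries and at 12.6 to 16.3 CPM in the block 3x libraries. With isotype antibody it was at 2.17 to 4.02 CPM after H16R and 2.22 to 2.90 CPM after 3x. Ccl3, a chemokine that recruits myeloid and T cells, was higher under block than with isotype antibody by 3.10 on the log2 scale after 3x and by 2.07 after H16R.

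Markers of natural killer cells, which also express T-bet, moved between these groups as well. Their summed level (Ncr1, Klrb1c, Klrd1, Klra8 and Klre1) ran from 23.1 to 37.9 CPM after isotype antibody and PBS, and of the 5 markers 5 fell with H16R and 4 with 3x in that arm (32.8% and 32.3% of all genes fell). It ran from 7.54 to 12.1 CPM in Tregs given isotype antibody and H16R and from 20.5 to 35.4 CPM with block and H16R, and from 10.6 to 16.9 and 23.2 to 31.0 CPM with 3x. It was highest, at 35.4 to 55.7 CPM, in the block WT IL-2 group, where Tbx21 was at 26.3 to 31.2 CPM, and it stood at 19.2 to 27.0 CPM in the block PBS group, where Tbx21 was at 15.6 to 21.0 CPM. Of the 5 markers, 4 rose and 0 fell from isotype to block with H16R (15.4% of all genes rose), and 3 rose and 0 fell with 3x (27.2%). Their part in the Tbx21 difference was not tested, and in bulk libraries a change in the number of cells of a type cannot be told apart from a change in RNA per cell.

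Maf rose with every IL-2 protein in both arms, and MHC II block lowered its response to WT IL-2 while raising its response to 3x. With isotype antibody it was at 126.6, 146.1, 155.6 and 112.7 CPM after PBS, at 267.5 to 322.3 CPM after WT IL-2, at 259.6 to 296.2 CPM after H16R and at 261.6 ± 15.1 CPM (SD, n = 4) after 3x. All 12 libraries given an IL-2 protein lay above the 4 given PBS, and the 3 proteins overlapped. Under block it was at 156.1, 172.8, 153.9 and 160.2 CPM after PBS, 183.4, 215.6, 257.1 and 209.8 CPM after WT IL-2, 349.0, 329.7, 385.6 and 365.1 CPM after H16R, and 460.9, 386.8, 495.6 and 485.4 CPM after 3x. Here the 4 treatments formed 4 ranges that did not overlap, from PBS through WT IL-2 and H16R to 3x.

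With isotype antibody the log2 fold changes of Maf were 1.12 (SE 0.09, adjusted p = 2.362e-10) for WT IL-2, 1.13 (SE 0.09) for H16R and 1.01 (SE 0.09) for 3x. H16R and WT IL-2 differed by 0.01 (95% interval -0.17 to 0.19), and 3x and WT IL-2 by -0.11 (95% interval -0.29 to 0.07). Under block the changes spread to 0.48 (SE 0.09, adjusted p = 0.000377) for WT IL-2, 1.21 (SE 0.09) for H16R and 1.54 (SE 0.09, adjusted p = 5.751e-14) for 3x. The interaction with block was -0.64 (SE 0.13, adjusted p = 0.00121) for WT IL-2, 0.08 (95% interval -0.18 to 0.34) for H16R and 0.54 (SE 0.13, adjusted p = 0.00316) for 3x. Marker sums moved beside Maf. For PBS, WT IL-2, H16R and 3x with isotype antibody the Treg sum was 2972 to 3585, 4419 to 4932, 4631 to 4729 and 4524 to 4683 CPM. Under block it was 3136 to 3386, 2745 to 3790, 4130 to 4502 and 4373 to 4853 CPM. The macrophage sum under block was 14.0 to 21.1, 24.3 to 565, 32.6 to 57.7 and 45.7 to 63.1 CPM. Their part was not tested.

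Most genes associated with c-Maf rose in the groups where Maf rose, except with WT IL-2 under block, where 5 of 10 did. Of 10 tested members of that list, 9 rose and 0 fell after WT IL-2 with isotype antibody (median log2 fold change 1.17), 9 rose and 1 fell after H16R (median 1.31) and 7 rose and 1 fell after 3x (median 0.64), where 26% to 31.4% of all genes rose. Under block, 9 rose and 0 fell after 3x (median log2 fold change 1.63, against -0.04 over all genes, of which 34.7% rose), 9 rose and 0 fell after H16R (median 1.70, 32.7% of all genes rose), and 5 rose and 0 fell after WT IL-2 (median 0.34, where 21.9% of all genes rose). From isotype to block, 0 rose and 7 fell with WT IL-2 (15.3% of all genes fell), and 9 rose and 0 fell with 3x (27.2% of all genes rose). Il10, the inhibitory cytokine that c-Maf is known to drive, was at 124.6 to 202.2 CPM with isotype antibody and WT IL-2 and at 67.9 to 91.6 CPM with block and WT IL-2. With 3x it was at 100.4 to 143.6 CPM with isotype antibody and 177.6 to 227.3 CPM with block. Havcr2, which encodes the inhibitory receptor TIM-3, and Il21, a follicular helper cytokine, were also among the list members that rose most with 3x under block, by 3.56 and 2.96 on the log2 scale.

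Ahr fell with the muteins under isotype antibody and rose with them under MHC II block. With isotype antibody it was at 36.5, 40.7, 43.0 and 48.2 CPM after PBS, 33.2, 39.9, 34.1 and 40.6 CPM after WT IL-2, 28.4, 32.8, 31.3 and 33.0 CPM after H16R, and 30.7, 29.8, 29.0 and 28.6 CPM after 3x. The 8 mutein libraries lay below the 4 PBS libraries. Under block it was at 33.7, 33.2, 32.6 and 35.4 CPM after PBS, 32.9, 32.1, 31.8 and 33.4 CPM after WT IL-2, 46.1, 56.8, 50.3 and 54.1 CPM after H16R, and 71.7, 57.6, 74.3 and 79.8 CPM after 3x. WT IL-2 libraries overlapped those given PBS, and every H16R and 3x library lay above both groups.

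In log2 terms Ahr changed by -0.35 (SE 0.08, adjusted p = 0.000761) with H16R and by -0.45 (SE 0.08, adjusted p = 5.321e-05) with 3x under isotype antibody, and by 0.68 (SE 0.08, adjusted p = 9.043e-08) and 1.11 (SE 0.08, adjusted p = 4.324e-12) under block. With WT IL-2 the change was -0.15 (95% interval -0.32 to 0.01) with isotype antibody and -0.0047 (95% interval -0.17 to 0.16) with block. The first of these passed without isotype PBS replicate 1 (-0.21, adjusted p = 0.0472) or without isotype WT IL-2 replicate 3b (-0.20, adjusted p = 0.0747). The interactions were 1.03 (SE 0.12, adjusted p = 2.949e-06) for H16R and 1.55 (SE 0.12, adjusted p = 1.366e-09) for 3x, against 0.15 (95% interval -0.09 to 0.38) for WT IL-2. Markers of other cell types moved beside Ahr. In the isotype arm 8 of 8 B cell, 6 of 6 dendritic cell and 5 of 6 tested macrophage markers fell with each mutein, where 32.8% and 32.3% of all genes fell. The macrophage sum in that arm was 96.8 CPM in PBS replicate 1, and 26.7, 16.1 and 18.1 CPM in PBS replicates 2, 3 and 4. It was 13.6 to 16.5 CPM after H16R and 18.0 to 23.5 CPM after 3x. Under block 0 of the 8 B cell markers passed with either mutein, and the macrophage sum went from 14.0 to 21.1 CPM after PBS to 32.6 to 57.7 CPM after H16R and 45.7 to 63.1 CPM after 3x, with 1 of 6 markers called up and 0 down. Their part in the Ahr values was not tested.

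The known targets of the receptor moved in both directions where the Ahr transcript rose. Of 10 target genes, 7 passed the filter on low counts, and from isotype to block 0 rose and 1 fell with H16R (15.4% and 15.2% of all genes) and 1 rose and 1 fell with 3x (27.2% and 26.9%), while Ahr itself rose by 0.70 and 1.22 on the log2 scale. Against PBS under block, 3 rose and 1 fell with H16R (median 0.27) and 3 rose and 2 fell with 3x (median -0.20), where 32.7% and 34.7% of all genes rose. Tiparp, a target whose product represses the receptor, was at 39.2 to 44.2 CPM with isotype antibody and 3x and at 32.4 to 37.0 CPM with block and 3x (log2 difference -0.33, adjusted p = 0.000906). Ahrr, the repressor gene that receptor activity induces, stayed at or below 0.736 CPM in all Treg libraries, and Cyp1b1, a detoxifying enzyme of the same response, at or below 0.219 CPM, and both were picked after their values were seen. Of the 6 partners and chaperones of the receptor, 0 rose and 4 fell from isotype to block with H16R (15.2% of all genes fell), among them Arnt, the partner it needs to bind DNA (-0.21), and Hsp90aa1, a chaperone that holds it in the cytoplasm (-0.26). Gpr15, a homing receptor of T cells for the colon, was the target that rose, by 0.35 (adjusted p = 0.0248) with 3x.

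**Figure D3:**
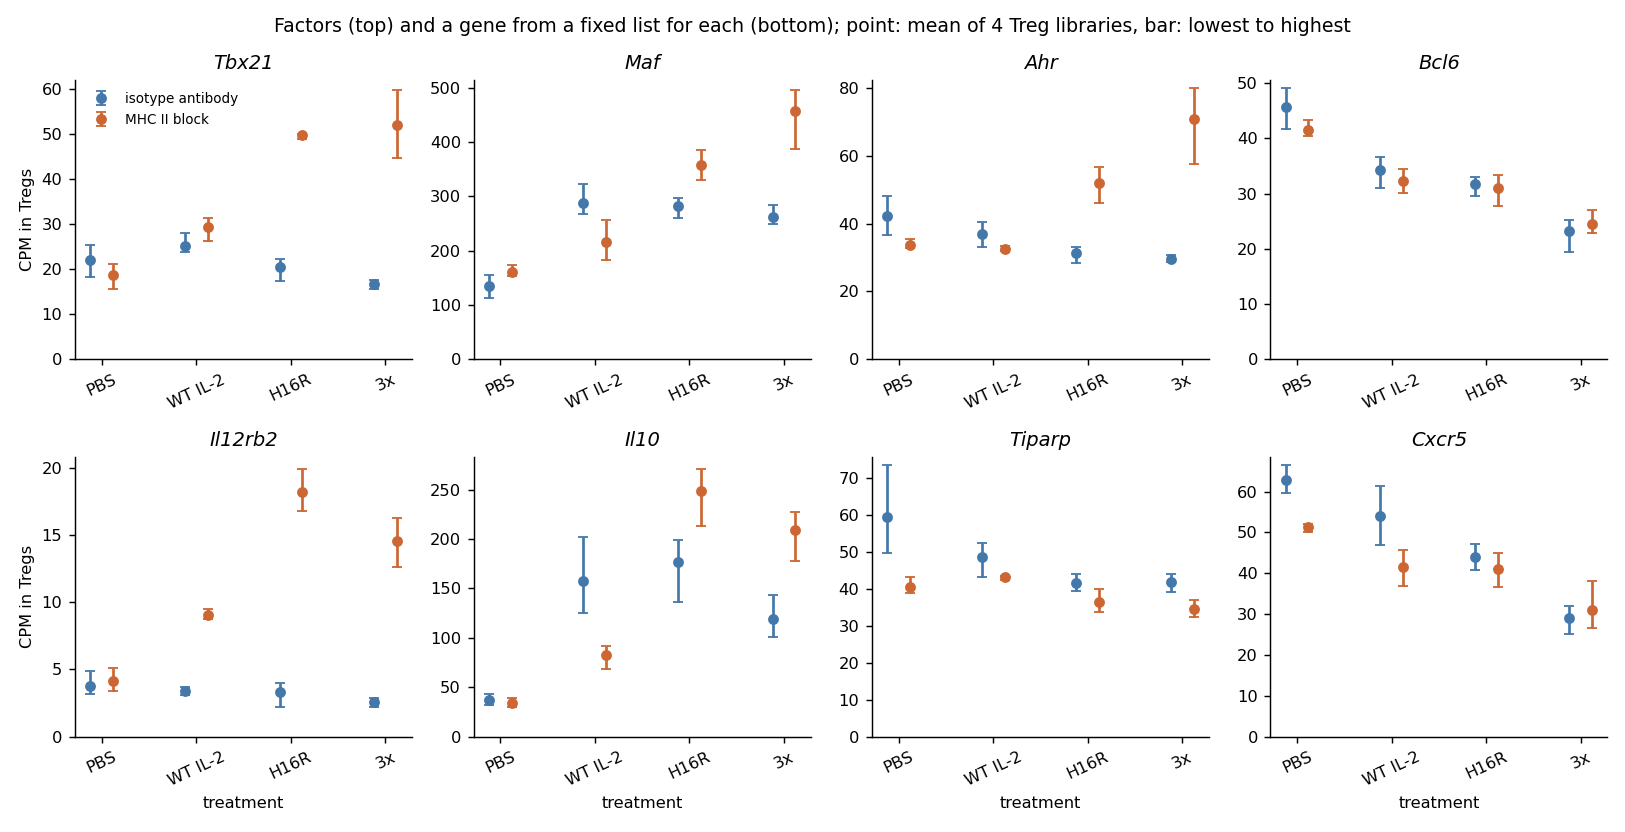
Level in CPM (vertical axes, from 0) of 4 of the factors (top row) and of 1 gene from the list kept for each (bottom row) in Tregs, by treatment, with isotype antibody in blue and MHC II block in orange. Points are means of 4 libraries and bars run from the lowest to the highest library. Il12rb2 and Il10 rose in the groups where Tbx21 and Maf were high, Cxcr5 was lowest with 3x as Bcl6 was, and Tiparp was not raised in the block groups with high Ahr. The 4 genes of the bottom row were picked after their values were seen.

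Bcl6 fell with every IL-2 protein, most with 3x, and by about as much in both arms. With isotype antibody it was at 44.8, 41.7, 49.1 and 47.0 CPM after PBS, 31.0, 36.6, 34.1 and 35.4 CPM after WT IL-2, 33.0, 31.7, 29.6 and 32.9 CPM after H16R, and 19.4, 25.3, 24.8 and 23.6 CPM after 3x. Under block it was at 40.5, 42.0, 40.4 and 43.2 CPM after PBS, 34.5, 32.1, 32.3 and 30.1 CPM after WT IL-2, 31.7, 33.3, 27.7 and 31.0 CPM after H16R, and 23.3, 27.1, 24.7 and 22.8 CPM after 3x. In each arm no library given an IL-2 protein reached the lowest PBS library, and no 3x library reached the lowest library of H16R or WT IL-2.

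For Bcl6 the log2 fold changes with isotype antibody were -0.38 (SE 0.07, adjusted p = 0.000104) for WT IL-2, -0.46 (SE 0.07) for H16R and -0.91 (SE 0.07, adjusted p = 5.024e-11) for 3x, and under block -0.32 (SE 0.07, adjusted p = 0.00147), -0.37 (SE 0.07) and -0.73 (SE 0.07, adjusted p = 9.862e-10). The interactions were 0.06 (95% interval -0.14 to 0.26), 0.09 (-0.11 to 0.29) and 0.18 (-0.02 to 0.39) for the 3 proteins, so none passed. The one for 3x passed with genes of all biotypes (0.24, adjusted p = 0.0682) and without isotype PBS replicate 2 (0.23, adjusted p = 0.0878). Block against isotype gave no Bcl6 call in any of the 4 treatments.

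Markers of B cells, some of which express Bcl6, fell beside it in the isotype arm. The sum of 8 B cell markers ran from 136.4 to 744 CPM after PBS, 62.2 to 105.5 CPM after WT IL-2, 34.9 to 47.0 CPM after H16R and 31.7 to 43.2 CPM after 3x, and all 8 fell with each protein, where 26.2% to 32.8% of all genes fell. Under block, where Bcl6 fell too, 0 of the 8 fell with any protein and 5 rose with WT IL-2, and the sum was at 76.6 to 166.4 CPM after PBS, 100.6 to 691 CPM after WT IL-2, 58.1 to 98.7 CPM after H16R and 66.0 to 138.6 CPM after 3x. The part of these cells in the Bcl6 values was not tested.

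Bcl6 is a gene that IL-2 signaling is known to repress through STAT5, a factor that binds the palindrome TTCNNNGAA. The windows around the annotated Bcl6 starts, 250 bases before to 50 after in RefSeq for GRCm38.p6, are shown for that reason, both on the minus strand of chromosome 16, with the matches to TTCNNNGAA in capitals.
Bcl6, chr16:23981234-23981533: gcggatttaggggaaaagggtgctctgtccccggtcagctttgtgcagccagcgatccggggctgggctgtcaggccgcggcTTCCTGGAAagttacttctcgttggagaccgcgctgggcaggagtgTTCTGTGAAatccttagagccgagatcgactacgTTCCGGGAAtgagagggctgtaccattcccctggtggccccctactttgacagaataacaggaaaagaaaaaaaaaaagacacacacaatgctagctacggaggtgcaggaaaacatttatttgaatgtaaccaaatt
Bcl6, chr16:23988803-23989102: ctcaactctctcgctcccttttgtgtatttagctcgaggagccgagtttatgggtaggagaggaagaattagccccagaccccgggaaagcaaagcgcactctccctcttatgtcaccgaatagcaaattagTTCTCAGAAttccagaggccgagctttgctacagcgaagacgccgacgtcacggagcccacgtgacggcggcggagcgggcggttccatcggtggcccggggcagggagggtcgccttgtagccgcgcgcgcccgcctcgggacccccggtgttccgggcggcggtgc
The first window, which starts within the gene, holds 3 matches, beginning 168, 122 and 88 bases before the start (TTCCTGGAA, TTCTGTGAA and TTCCGGGAA), and the second holds 1 (TTCTCAGAA, 118 bases before). A match stood in 8.33% of 32544 promoter windows and 3 or more in 11 of them (0.0338%), a cutoff set after the Bcl6 count was seen. RefSeq windows were at hand for 3 of the 5 genes, and those of Tbx21 and Rora held none. For GCGTG, the core of the element that the aryl hydrocarbon receptor binds (32.6% of windows), 1 match stood in the Rora window, and TGANTCA, the AP-1 element (7.79%), matched none of the 4 windows. A match is a run of letters and not a measured binding site.

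Genes that Bcl6 represses moved in both directions. Of 12 in that list, 7 rose and 4 fell after 3x with isotype antibody (median log2 fold change 0.26), and 7 rose and 4 fell under block (median 0.43), where 31.3% and 34.7% of all genes rose. Socs2, a feedback inhibitor of cytokine receptors that STAT5 also induces, rose by 1.63 and 1.88, and Ccr6, a chemokine receptor of Th17 cells and tissue Tregs, fell by 1.57 and 1.41. Cxcr5, the receptor that brings follicular T cells into the B cell follicle, was at 59.5 to 66.4 CPM with isotype antibody and PBS and at 25.2 to 31.9 CPM with 3x, a log2 fold change of -1.06. Other genes of the follicular list went the other way. Icos, a costimulatory receptor, rose by 0.92 with 3x and isotype antibody and by 1.31 under block, and of the 11 tested genes of the list 6 rose and 4 fell with 3x under block (34.7% and 38.3% of all genes).

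Rora was the member with the widest spread between mice and the fewest calls. In isotype PBS mice it was at 79.1, 128.0, 124.9 and 199.5 CPM, a range that held every other Treg library. After WT IL-2, H16R and 3x it was at 124.5 to 166.5, 106.5 to 130.1 and 104.2 to 118.7 CPM with isotype antibody, and at 98.2 to 149.1, 82.7 to 104.3 and 89.0 to 116.2 CPM under block, beside 96.8 to 109.5 CPM after PBS and block. None of the 6 comparisons with PBS passed. The 95% intervals ran from -0.47 (3x with isotype antibody) to 0.65 (WT IL-2 under block).

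Isotype PBS replicates 1 and 4 decide the Rora comparisons in that arm. Without replicate 1, the lowest, the difference from PBS was -0.06 for WT IL-2, -0.28 for H16R (adjusted p = 0.0834) and -0.34 for 3x (adjusted p = 0.0316), and without replicate 4, the highest, it was 0.39 (adjusted p = 0.0231), 0.17 and 0.10. Replicate 1 was also the Treg library with the highest B cell markers. Under block, where PBS mice varied less, the change with WT IL-2 was 0.34 (SE 0.16, adjusted p = 0.104), which became 0.45 without block WT IL-2 replicate 1 (adjusted p = 0.0386) and passed in other alternatives too, among them the fit without isotype PBS replicate 4 (0.34, adjusted p = 0.0393). Of 8 clock genes that ROR receptors are known to drive, 0 rose and 5 fell with each of the 3 proteins under isotype antibody (26.2%, 32.8% and 32.3% of all genes fell), led with 3x by Nr1d1 (-1.25), which encodes the clock repressor REV-ERBα. Under block 0 rose and 2 fell with WT IL-2, 0 rose and 6 fell with H16R, and 1 rose and 6 fell with 3x, where 13.7%, 33.8% and 38.3% of all genes fell. Of 9 tested Th17 and ROR associated genes, 0 rose and 4, 8 and 8 fell after WT IL-2, H16R and 3x with isotype antibody, among them, with 3x, Tmem176b (-1.55), a membrane gene known from Th17 cells. Under block 2 rose and 0 fell after WT IL-2 (21.9% of all genes rose), and 0 rose and 6 fell after each mutein.

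Comparing MHC II block with isotype antibody within each treatment asks how the blocking antibody changed each state. In PBS mice 1 of the 5 genes passed (14.1% of all genes), Ahr, which was lower under block by 0.34 (SE 0.09, adjusted p = 0.0127). Without isotype PBS replicate 1, Rora (-0.53, adjusted p = 0.0119) and Tbx21 passed as well, and without isotype PBS replicate 3 Maf did (0.31, adjusted p = 0.0475), one of 5 alternatives in which Maf passed. With WT IL-2, 2 passed (33.6% of all genes). Maf was lower under block (log2 difference -0.42, SE 0.09, adjusted p = 0.00119), and Ahr was lower by a margin that 15 of the alternatives removed (-0.19, adjusted p = 0.0936, up to 0.257 without isotype WT IL-2 replicate 3b). Tbx21 stood at 0.21 (95% interval 0.02 to 0.40, adjusted p = 0.108) and passed in 9 alternatives, with adjusted p down to 0.0383 after thinning. Between these WT IL-2 groups the Treg marker sum went from 4419 to 4932 CPM with isotype antibody to 2745 to 3790 CPM with block, the T cell marker sum from 3436 to 3658 CPM to 2565 to 3223 CPM, and the macrophage sum from 13.9 to 22.3 CPM to 24.3 to 565 CPM, and their part was not tested. With H16R, 4 passed (30.7% of all genes), and with 3x, 3 passed (54.1%).

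With the muteins Tbx21, Ahr and Maf were all higher under block. Tbx21 was higher under block by 1.25 (SE 0.10, adjusted p = 1.246e-09) after H16R and by 1.60 (SE 0.10, adjusted p = 2.368e-12) after 3x, a 2.39-fold and 3.03-fold difference. Ahr was higher by 0.70 (SE 0.08) and 1.22 (SE 0.08), and Maf by 0.31 (SE 0.09, adjusted p = 0.0179) and 0.76 (SE 0.09). The fourth call with H16R was Rora, lower under block by 0.37 (SE 0.16, adjusted p = 0.0895), which was lost in 18 alternatives, with adjusted p up to 0.222 without block H16R replicate 4. Markers of other cell types moved between the same groups. The B cell sum went from 34.9 to 47.0 CPM with isotype antibody to 58.1 to 98.7 CPM with block after H16R, and from 31.7 to 43.2 CPM to 66.0 to 138.6 CPM after 3x. Of these 8 markers 2 rose and 0 fell with H16R (15.4% of all genes rose) and 4 rose and 0 fell with 3x (27.2%). The macrophage sum went from 13.6 to 16.5 CPM to 32.6 to 57.7 CPM after H16R and from 18.0 to 23.5 CPM to 45.7 to 63.1 CPM after 3x, and the dendritic cell sum from 5.91 to 8.43 CPM to 21.3 to 32.5 CPM and from 6.96 to 9.73 CPM to 21.7 to 30.6 CPM. Their part was not tested.

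The 3 IL-2 proteins were then compared with each other at the same dose, day and arm. With isotype antibody, 1 of the 5 genes passed for H16R against WT IL-2 (18.6% of all genes), 3 between 3x and WT IL-2 (34.7%) and 2 between 3x and H16R (11.5%), all of them lower with the mutein or, in the last pair, with 3x. The call between H16R and WT IL-2 was Tbx21 at -0.27 (adjusted p = 0.0730), which was lost without any of 5 libraries (isotype WT IL-2 replicate 2 or 3a, or isotype H16R replicate 2, 3 or 4, adjusted p up to 0.236), and with no filter on low counts (adjusted p = 0.111), all biotypes (0.120 adjusted p) or thinning (-0.19, adjusted p = 0.275). Ahr, at -0.20 (adjusted p = 0.107), passed in 13 alternatives, among them DESeq2, library totals, FPKM and the 2 groups alone. From WT IL-2 to 3x, Tbx21 fell by 0.57 (SE 0.10, adjusted p = 0.000107), Bcl6 by 0.53 (SE 0.07, adjusted p = 5.823e-06) and Ahr by 0.30 (SE 0.08, adjusted p = 0.00813). Between 3x and H16R, Bcl6 was lower with 3x by 0.46 (SE 0.07, adjusted p = 0.000358), and Tbx21 by 0.30 (adjusted p = 0.0613), a call that rested on each of isotype H16R replicates 1, 3 and 4 and isotype 3x replicates 1 and 2 (adjusted p up to 0.167).

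More of the 5 genes, and of all genes, differed between the proteins under block than with isotype antibody. H16R and WT IL-2 differed in 4 of the 5 genes (57.5% of all genes), 3x and WT IL-2 in 5 (68.7%), and 3x and H16R in 3 (25.2%). Against WT IL-2, H16R raised Tbx21 by 0.77 (SE 0.10), Maf by 0.73 (SE 0.09) and Ahr by 0.68 (SE 0.08), with adjusted p from 3.929e-07 to 5.948e-07, and 3x raised Ahr by 1.11, Maf by 1.07 and Tbx21 by 0.81. Bcl6 differed by -0.41 (SE 0.07, adjusted p = 2.604e-05) between 3x and WT IL-2, beside -0.53 with isotype antibody, and this difference between the arms was not tested. Rora was lower than with WT IL-2 after both muteins, by 0.46 (adjusted p = 0.0176) and 0.38 (adjusted p = 0.0394), and the latter was lost without block WT IL-2 replicate 3 or 4 or block 3x replicate 1 or 4 (adjusted p up to 0.141) and with all biotypes (-0.30, adjusted p = 0.107). Between the muteins, 3x had more Ahr (0.43, SE 0.08, adjusted p = 0.000599), more Maf (0.33, SE 0.09, adjusted p = 0.0114) and less Bcl6 (-0.36, SE 0.07, adjusted p = 0.00109) than H16R, while Tbx21 differed by 0.04 (95% interval -0.15 to 0.23). Marker sums moved between these block groups. For WT IL-2, H16R and 3x the Treg sum was 2745 to 3790, 4130 to 4502 and 4373 to 4853 CPM. The T cell sum was 2565 to 3223, 3508 to 3948 and 3207 to 3426 CPM, and the macrophage sum 24.3 to 565, 32.6 to 57.7 and 45.7 to 63.1 CPM. Their part was not tested.

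The wider set of helper lineage factors was mixed. Of 29 tested factors outside the 5, 13 rose and 9 fell with 3x under block (34.7% and 38.3% of all genes), with a median log2 fold change of 0.10. Zbtb32, a repressor induced in activated lymphocytes, rose by 2.39, Prdm1, which encodes Blimp-1, the antagonist of Bcl6, by 1.48, and Tcf7, a factor of resting and follicular T cells, fell by 0.97. Prdm1 was at 33.4 to 37.2 CPM with isotype antibody and PBS, 51.1 to 61.9 CPM with isotype antibody and 3x, and 96.9 to 117.5 CPM with block and 3x.

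The tested genes most like each factor over the 32 Treg libraries were found by Pearson correlation of log2 CPM among 9507 genes with a mean of at least 5 CPM, as a description in which libraries of a group share their treatment. For Tbx21 these were Kcnk5, Cxcr6 and Il12rb2 (r of 0.93 each), and for Ahr they were Nptn (0.90), Kcnk5 (0.89) and Atp2a2 (0.88), so the potassium channel gene Kcnk5 stood in both lists. Maf was closest to Rab11a (0.98), Ptpn7 (0.97) and Paqr4 (0.97). For Bcl6 they were Tnks1bp1 (0.92), Atp9a (0.91) and Wdr33 (0.91), and for Rora, Mob1b (0.87), Tbl1xr1 (0.85) and Emb (0.85).

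In Tcons, Tbx21 rose and Bcl6 fell with all 3 proteins, and with the arms pooled no other response to an IL-2 protein held in every alternative. The 2 arms were pooled, 4 libraries a treatment (12526 genes tested). After WT IL-2 2 of the 5 genes passed (27.2% of all genes), after H16R 3 (31.1%) and after 3x 2 (9.91%). Tbx21 was at 43.1, 39.7, 42.0 and 38.9 CPM after PBS, 67.0, 64.8, 78.3 and 62.9 CPM after WT IL-2, 79.5, 76.6, 98.1 and 70.4 CPM after H16R, and 47.1, 66.7, 65.7 and 62.9 CPM after 3x, with the isotype libraries given first. Every library given an IL-2 protein lay above all 4 PBS libraries, in contrast to the isotype arm of the Tregs. The log2 fold changes were 0.75 (SE 0.11, adjusted p = 0.00179), 0.98 (SE 0.11, adjusted p = 0.000212) and 0.56 (SE 0.11, adjusted p = 0.0149). Natural killer cell markers rose beside Tbx21. Their sum was at 89.5 to 96.1 CPM in isotype PBS Tcons and 86.1 to 135.5 CPM in the isotype Tcons given an IL-2 protein, and at 45.6 to 51.6 CPM and 105.9 to 203.5 CPM under block. Of the 5 markers 3 rose with WT IL-2 (14.8% of all genes rose), 3 with H16R (16.2%) and 1 with 3x (4.73%), 0 fell, and their part was not tested.

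**Figure D4:**
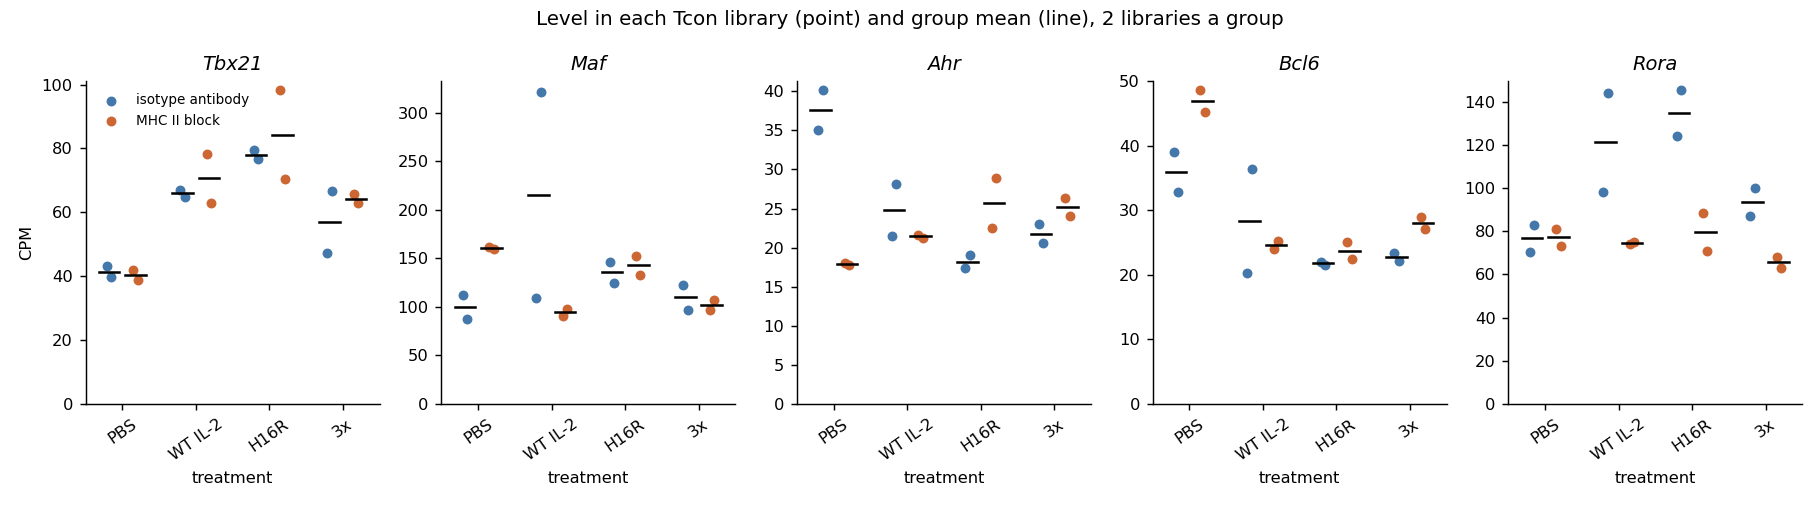
Level of each gene in CPM (vertical axis, from 0) in every Tcon library (points), by treatment, with isotype antibody in blue and MHC II block in orange, and the mean of the 2 libraries of a group as a line. Tbx21 was above PBS and Bcl6 mostly below it with each IL-2 protein, and 1 isotype WT IL-2 library stood apart for Maf at 321.1 CPM.

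Bcl6 in Tcons was at 39.1, 32.8, 48.6 and 45.2 CPM after PBS, 20.2, 36.4, 24.0 and 25.3 CPM after WT IL-2, 22.0, 21.5, 25.0 and 22.4 CPM after H16R, and 23.4, 22.2, 28.9 and 27.1 CPM after 3x. Its log2 fold changes were -0.62 (SE 0.15, adjusted p = 0.0189), -0.87 (SE 0.15, adjusted p = 0.00254) and -0.71 (SE 0.15, adjusted p = 0.0203). The library at 36.4 CPM, isotype WT IL-2 replicate 2, was alone among the 12 in reaching the PBS range. It also held the most Maf of the Tcon libraries (321.1 CPM, where the other 15 ran from 87.0 to 161.6) and the highest sum of Treg markers, and the part of Treg RNA in its values was not tested. Without it the difference of Maf between WT IL-2 and PBS went from 0.22 to -0.38 (adjusted p = 0.116). The B cell marker sum was 964 to 1110 CPM in isotype PBS Tcons and 180.1 to 487 CPM in isotype Tcons given an IL-2 protein. Under block it was 168 to 179 CPM after PBS and 163.4 to 387.7 CPM with an IL-2 protein. The part of B cells in the Bcl6 values was not tested.

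Over all treatments, Rora was the 1 gene of the 5 that passed between block and isotype in Tcons, where 28.9% of all genes passed. It was at 70.5 to 145.6 CPM in the 8 isotype libraries and 63.0 to 88.4 CPM in the 8 block libraries, a log2 difference of -0.51 (SE 0.11, adjusted p = 0.0153). Without isotype WT IL-2 replicate 2, Bcl6 passed too, going from 0.14 to 0.26 (adjusted p = 0.0121). In PBS mice the means were close, at 76.7 CPM with isotype antibody and 77.3 CPM with block, and with each IL-2 protein both isotype libraries lay above both block libraries. In the mice given an IL-2 protein the macrophage sum went from 28.7 to 65.2 CPM with isotype antibody to 113.1 to 545 CPM with block and the dendritic cell sum from 52.2 to 101.5 CPM to 143.5 to 239 CPM, and their part was not tested. The highest values were those of isotype H16R (124.2 and 145.6 CPM) and isotype WT IL-2 (98.1 and 144.4 CPM). The third call after H16R was a Rora rise of 0.40 (SE 0.16, adjusted p = 0.0874), which was lost in 12 alternatives, with adjusted p up to 0.272 without isotype PBS replicate 1. Ahr was at 35.1 and 40.2 CPM in the isotype PBS Tcons and at 17.8 and 18.0 CPM in the block PBS Tcons, and the libraries given an IL-2 protein lay on opposite sides of PBS in the 2 arms. All 6 isotype libraries given an IL-2 protein (17.3 to 28.2 CPM) lay below both PBS libraries, and all 6 under block (21.3 to 28.9 CPM) lay above both. The fit, which pools the arms, cannot show such a pattern and gave no Ahr call, and the difference between the arms was not tested. B cell markers fell in the same way between the PBS groups, from 964 to 1110 CPM with isotype antibody to 168 to 179 CPM with block. The isotype Tcons given an IL-2 protein held 180.1 to 487 CPM of them. From PBS to the IL-2 proteins the dendritic cell sum went from 105.9 to 149.6 CPM to 52.2 to 101.5 CPM with isotype antibody. Under block it went from 36.3 to 38.7 CPM to 143.5 to 239 CPM. The part of these cells was not tested.

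The Treg and Tcon libraries of the same 16 mice were set side by side in a fit that blocks on the mouse (12844 genes tested). Over the 4 treatments all 5 genes differed, where 80.5% of all genes did. Tbx21 was lower in the Treg library of 16 of 16 mice, with a mean log2 difference of -1.14 (SE 0.13, adjusted p = 7.288e-07), while Ahr was higher in 16 of 16 (0.79, SE 0.08, adjusted p = 2.741e-07) and Maf in 15 of 16 (1.05, SE 0.10, adjusted p = 4.121e-08). Natural killer cell markers were lower in Tregs too, at 7.54 to 55.7 CPM in all Treg libraries against 45.6 to 203.5 CPM in Tcons, with 5 of 5 markers lower (39.8% of all genes were), and their part in the Tbx21 difference was not tested. Rora and Bcl6 were each higher in Tregs in 12 of 16 mice, by 0.40 (SE 0.06) and 0.28 (SE 0.05), but not in every treatment. Bcl6 was higher in 4 of 4 mice given WT IL-2 and 4 of 4 given H16R, but in 2 of 4 after PBS and 2 of 4 after 3x. Rora was higher in 4 of 4 mice after PBS, 4 of 4 after 3x, 3 of 4 after WT IL-2 and 1 of 4 after H16R. In PBS mice alone 3 of the 5 passed (50.4% of all genes): Tbx21 (-1.14, adjusted p = 0.00278), Rora (0.47, adjusted p = 0.00835) and Ahr (0.49, adjusted p = 0.0283). The Ahr call there rested on the block mice, with 0.34 or 0.35 and adjusted p of 0.151 and 0.155 when either was left out.

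**Figure D5:**
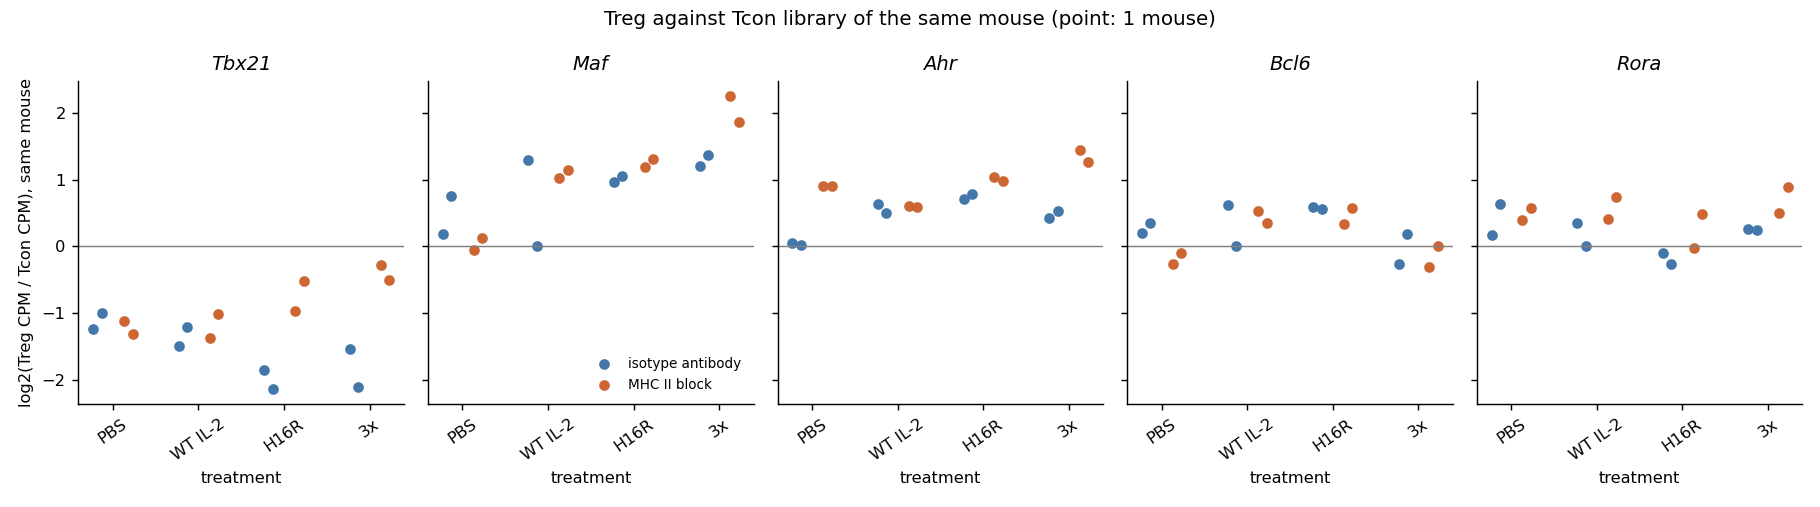
Log2 ratio of CPM in the Treg library to CPM in the Tcon library of the same mouse (vertical axis, 0 means equal), by treatment, with isotype antibody in blue and MHC II block in orange and 1 point a mouse. All 16 points of Tbx21 lay below 0 and all 16 of Ahr above it, and the Tbx21 points came nearest to 0 with block and 3x.

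The mouse by mouse ratios show where the distance between the cell types was smallest. For Tbx21 the log2 ratio ran from -2.14 to -0.28 over the 16 mice, and the 2 extremes were an isotype H16R mouse and a block 3x mouse. The Maf ratio was between -0.05 and 0.75 in the 4 PBS mice and between 1.21 and 2.25 in the 4 mice given 3x. A WT IL-2 mouse had nearly equal Maf in both fractions (0.01), the mouse of the Tcon library with high Treg markers.

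Whether each protein changed a gene differently in the 2 cell types was tested as an interaction of cell type and treatment, in a fit that pools the 2 antibody arms and so averages responses that differ between them. For Tbx21 with 3x the log2 ratio of Treg to Tcon was -1.53 and -2.11 in the isotype mice and -0.28 and -0.50 in the block mice, beside -1.24 and -1.00 and -1.11 and -1.32 in the PBS mice of each arm, and the pooled difference was 0.17 (95% interval -0.57 to 0.90). After WT IL-2 none of the 5 passed in edgeR (12.2% of all genes), where 2 had an unadjusted p below 0.05, after H16R 2 passed (40.6%) and after 3x 2 passed (46.5%). Maf responded more in Tregs than in Tcons to H16R, by 0.97 (SE 0.27, adjusted p = 0.0140), and to 3x, by 1.49 (SE 0.27, adjusted p = 0.000655). For WT IL-2 the difference in Maf was 0.66 (adjusted p = 0.144) and became 0.94 (adjusted p = 0.0146) without the pair of isotype WT IL-2 replicate 2, and Bcl6, at 0.37 (adjusted p = 0.141), then passed as well (0.49, adjusted p = 0.0369). Bcl6 fell less in Tregs than in Tcons with H16R (0.56, SE 0.15, adjusted p = 0.0120), and Ahr differed with 3x by 0.53 (adjusted p = 0.0876), a call lost in 13 alternatives, up to an adjusted p of 0.282 without the pair of block 3x replicate 1.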

How the data were processed

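RNA was sequenced from 32 Treg and 16 Tcon libraries of mouse spleen. The authors aligned reads with OSA in the Omicsoft Array Suite to mouse genome B38 and quantified genes with its RSEM, and the deposited matrices hold expected counts and FPKM. Of the nonzero expected counts 72.8% were whole (tolerance 1e-09). Deposited DESeq2 tables (version 1.30.1) hold the study's own comparisons and were not used.

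Expected counts were rounded and tested with edgeR 4.0.16 (R 4.3.3; quasi-likelihood, TMM), keeping protein-coding genes with CPM above 0.5 in at least 4 libraries, with Benjamini-Hochberg adjustment over all tested genes and a threshold of 0.1. CPM in the text are expected counts scaled to a total of 1e6 a library. Intervals come from the fitted SE with a normal quantile, so they can be narrower than the quasi-likelihood test implies. Tregs were fitted as 8 groups, Tcons with treatment and antibody as additive terms, and Tregs with Tcons of the same mouse with the mouse, given by the labels, as a block. The steps were tested on simulated counts in which a small share of genes changed. That test does not cover changes as wide as those seen here.

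Alternatives were library totals, RLE scaling, DESeq2 1.42.0, no low-count filter, all biotypes, empty cells as 0, thinning, limma 3.58.1 on log2(FPKM + 1) or log2(FPKM + 0.1), the replicate block, the 2 groups alone, and leaving out each library. One marker list is not reported here. The genes and lists were chosen with earlier results of these data known. From a list, at most 4 called genes with a mean of at least 5 CPM and the largest changes were named, beside exceptions marked in the text.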

Additional observations from a re-analysis of the deposited data

Results flagged for a closer look

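In Tregs the response to an IL-2 protein differed between the antibody arms, by the interaction test over all genes, in 7 cases (log2 difference, block minus isotype). For Tbx21 it was 0.46 (WT IL-2), 1.5 (H16R) and 1.84 (3x), for Ahr 1.03 with H16R and 1.55 with 3x, and for Maf -0.64 with WT IL-2 and 0.54 with 3x. Between the cell types, the response in Tregs minus that in Tcons was 0.56 for Bcl6 with H16R, 0.97 for Maf with H16R, 1.49 for Maf with 3x and 0.53 for Ahr with 3x, the last with an adjusted p in edgeR of 0.0876.

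Among the 40 groups of 4 Treg libraries (5 genes in 8 groups), 1 library lay farther from the rest of its group than Dixon's test allows at the 95% level. Tbx21 in block H16R replicate 2 was at 48.93 CPM, a gap of 0.858 of the group's range, beside 49.88, 49.94 and 50.04 CPM in the other 3. Chance flags about 1 in 20 groups.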

How the results depend on the processing

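Of the called results for the 5 genes, 9 lost their call in at least 1 alternative, all of them marked beside their values, and no called result changed direction. The replicate block left 113 of 115 results on the same side of the threshold and added 2, Rora with WT IL-2 under block (0.33, adjusted p = 0.0922 in edgeR) and Ahr between H16R and WT IL-2 with isotype antibody (-0.23, adjusted p = 0.0601). Over 112 same-numbered Treg pairs the correlation of deviations had a median of 0.03 (-0.50 to 0.67), with 34 pairs over 0.1. Libraries of different numbers were not correlated, so this cannot decide whether the numbers mark pairs. The main fits did not take them as pairs.

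Directions turned only for differences that had not passed. Rora became -0.06441 (isotype WT IL-2) and 0.1582 (H16R by block) without isotype PBS 1 and block WT IL-2 1 together, an alternative added after the data were seen. Without the low-count filter Rora was 0.01293 for block 3x and 0.0092 for 3x in Tcons. With all biotypes Rora was 0.03772 (block 3x), 0.006965 (H16R by block) and 0.01305 (3x in Tcons), and Bcl6 0.008042 (block H16R against WT IL-2). Thinned, Ahr was 0.01322 (block WT IL-2), Maf -0.005717 (isotype H16R against WT IL-2) and Bcl6 -0.02058 (WT IL-2 by block). With library totals that Maf difference was -0.02284 and Rora in Tcons 0.005917 with 3x. On FPKM, with pseudocounts 1 and 0.1, they were -0.0338 and -0.03432, and 0.07773 and 0.08369, and Rora by cell type with 3x was -0.09843 and -0.1048. The causes were not tested.

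Without 1 library, differences that turned ranged as follows. Rora ran -0.06438 to 0.39 (WT IL-2), -0.28 to 0.17 (H16R) and -0.34 to 0.10 (3x) with isotype antibody, -0.11 to 0.03313 (block 3x), -0.04692 to 0.41, -0.29 to 0.16 and -0.13 to 0.31 (interactions with block), -0.15 to 0.12 (3x in Tcons), and -0.16 to 0.08628 and -0.05666 to 0.18 (cell type with WT IL-2 and 3x). Tbx21 ran -0.12 to 0.05824 (isotype H16R), -0.03746 to 0.11 (block 3x against H16R), and -0.15 to 0.01223, -0.38 to 0.15 and -0.14 to 0.50 (cell type with WT IL-2, H16R and 3x). Maf ran -0.02334 to 0.07332 (isotype H16R against WT IL-2), and in Tcons -0.38 to 0.43 (WT IL-2), -0.15 to 0.23 (H16R) and -0.27 to 0.12 (block). Ahr ran -0.01988 to 0.01848 (block WT IL-2). Bcl6 ran -0.0494 to 0.06803 (3x, block against isotype), -0.02802 to 0.17 (cell types, PBS) and -0.19 to 0.02462 (cell type with 3x).

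Over all genes, calls with only the 2 groups fitted were 780 for block in PBS mice and 2258 for isotype 3x against H16R, and with all biotypes 2000 for 3x in Tcons. Without 1 library, calls ran 1106 to 2066 (block, PBS), 2493 to 4481 (block, H16R), 907 to 2712 (isotype H16R against WT IL-2), 591 to 1765 (isotype 3x against H16R), 1975 to 3674 (block 3x against H16R) and 1488 to 3593 (H16R by block), in Tcons 1753 to 5397 (WT IL-2), 2239 to 4872 (H16R), 513 to 2218 (3x) and 2128 to 4971 (block), and 246 to 3212 (cell type with WT IL-2).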
